A study of Equus caballus with 25 samples.

Results

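The levels of 6 array transcripts of radial spoke and axoneme genes were followed in RNA of bronchoalveolar lavage (BAL) cells from 25 horses, measured on arrays that carried 7238 equine transcripts. The 6 transcripts were annotated to 4 genes. ENSECAT00000000629, ENSECAT00000000632 and ENSECAT00000000610 belonged to RSPH9, ENSECAT00000013153 to RSPH4A, ENSECAT00000012520 to ROPN1B and ENSECAT00000008943 to TCTE3. They were chosen by their lower intensity in diseased than in healthy horses on these same arrays, so the differences from healthy horses are given as a description with no test. The SEA and MEA contrasts with healthy horses shared the same healthy horses. The contrast between the diseased groups, the covariation among horses of a group and the relation to the counted epithelial cells were tested, although the contrast between the diseased groups used the same diseased horses as the choice.

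The CTRL group held 7 clinically healthy standardbred horses, labelled Control. The MEA group held 10 horses with mild to moderate equine asthma, labelled IAD, and the SEA group held 8 horses with severe equine asthma, labelled RAO. The MEA and SEA horses were mostly saddle horses examined as clinical cases, and the SEA horses were older on average than the horses of the other groups, so breed and disease, and in SEA also age, cannot be told apart. Each horse gave 1 array, and the arrays lay on 4 slides that each held horses of all 3 groups. The percentage of spots well above background on an array ran from 58.25% in MEA replicate 2 to 90.77% in SEA replicate 6. SEA replicate 1 stood apart from its group, since the summed intensity of its neutrophil marker probes was 3030, against a SEA median of 47400 and a CTRL median of 3400, although neutrophils made up most of the cells counted in every SEA horse. MEA replicate 3 had the highest such sum of all horses, 211000, against a MEA median of 4900, with few neutrophils counted. The cause was not tested. Several results that rest on SEA replicate 1 are given below with and without it, but the correlations with the counted percentages were not repeated without it.

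Motile cilia beat on the ciliated cells of the airway surface and carry mucus out of the lung. Their core, the axoneme, is a ring of microtubule doublets around a central pair, and radial spokes reach from each doublet to that pair and pass on the signals that time the dynein motors. Lavage fluid holds mainly macrophages and other leukocytes, together with a few epithelial cells shed from the airway wall, and transcripts of motile cilia are known from the ciliated cells among them. RSPH9 and RSPH4A encode proteins of the spoke head, and inherited loss of either is known from primary ciliary dyskinesia in people. ROPN1B encodes a ropporin, a small protein with a docking domain like that of a protein kinase A subunit, and TCTE3 encodes a dynein light chain of the Tctex type.

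The probes are shown because they decide how many separate measurements the 6 transcripts gave. The 3 RSPH9 transcripts carried the same probe, 60 bases long, so their 6 spots on an array were repeats of 1 measurement, and the 6 transcripts gave 4 distinct probes. No probe of another array transcript shared 20 bases in a row with any of the 4.
RSPH9: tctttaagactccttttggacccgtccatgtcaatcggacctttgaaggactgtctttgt
RSPH4A: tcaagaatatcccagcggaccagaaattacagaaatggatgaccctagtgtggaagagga
ROPN1B: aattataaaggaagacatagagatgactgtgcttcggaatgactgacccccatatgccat
TCTE3: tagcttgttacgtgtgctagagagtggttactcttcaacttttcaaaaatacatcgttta

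The GC content was 45% in the RSPH9 and RSPH4A probes, 41.7% in the ROPN1B probe and 35% in the TCTE3 probe, against an array median of 45%. Over the 25 arrays the lowest Pearson r between any pair of the 3 RSPH9 transcripts was 0.9817, and the SD of their 6 spots on an array had a median of 0.11 on the log2 scale, with 0.7 as its highest value. RSPH9 is therefore given below as the mean of its 3 transcripts where genes are compared. All 6 transcripts passed the filter on dim probes. Both spots were well above background on all 25 arrays for RSPH9 and ROPN1B, on 24 for RSPH4A and on 23 for TCTE3, where the other 2 arrays had 1 such spot. The array without a RSPH4A spot well above background was that of SEA replicate 1.

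RSPH9, a spoke head protein gene, ran in CTRL horses from a log2 intensity of 9.22 through a median of 10.12 to 11.34. In MEA horses it ran from 5.97 through 8.07 to 10.32, and in SEA horses from 4.41 through 8.11 to 9.65. A single MEA horse, replicate 7, and a single SEA horse, replicate 5, reached the range of the CTRL horses, and 6 of 8 SEA horses lay within the range of the MEA horses. The means were 10.24 ± 0.75 in CTRL (SD, n = 7), 8.13 ± 1.19 in MEA (SD, n = 10) and 7.68 ± 1.76 in SEA (SD, n = 8). The mean was 4.32-fold lower in MEA than in CTRL and 5.87-fold lower in SEA than in CTRL.

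RSPH4A, the other spoke head gene, ran in CTRL horses from 8.95 through a median of 9.47 to 10.11 on the log2 scale. In MEA horses it ran from 5.4 through 7.66 to 9.6. In SEA horses it ran from 0.66 through 7.46 to 9.32, and the value of 0.66, from SEA replicate 1, was not well above background. The group means were 9.53 ± 0.5 in CTRL (SD, n = 7), 7.64 ± 1.22 in MEA (SD, n = 10) and 6.4 ± 2.89 in SEA (SD, n = 8), and the SEA mean was 7.22 ± 1.85 without SEA replicate 1 (SD, n = 7). The mean was 3.71-fold lower in MEA and 8.74-fold lower in SEA than in CTRL. The latter value was enlarged by SEA replicate 1, without which the log2 difference of SEA minus CTRL was -2.31 in place of -3.13. MEA replicates 7 and 10 and SEA replicate 5 reached the range of the CTRL horses.

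ROPN1B, the ropporin gene, ran in CTRL horses from 11.33 through a median of 12.09 to 13.42 on the log2 scale. The MEA horses ran from 7.9 through 10.34 to 12.89, and the SEA horses from 6.01 through 9.27 to 10.99. No SEA horse reached the lowest CTRL horse, while 2 of 10 MEA horses did. The means were 12.4 ± 0.81 in CTRL (SD, n = 7), 10.29 ± 1.37 in MEA (SD, n = 10) and 9.07 ± 1.52 in SEA (SD, n = 8). They were 4.3-fold lower in MEA and 10-fold lower in SEA than in CTRL.

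TCTE3, the dynein light chain gene, ran in CTRL horses from 7.08 through a median of 7.75 to 8.83 on the log2 scale. The MEA horses ran from 3.85 through 5.73 to 7.17, and the SEA horses from 3.02 through 5.23 to 6.65. No SEA horse and 1 MEA horse reached the lowest CTRL horse. The means were 7.94 ± 0.61 in CTRL (SD, n = 7), 5.61 ± 0.99 in MEA (SD, n = 10) and 5.19 ± 1.43 in SEA (SD, n = 8), which were 5.01-fold lower in MEA and 6.72-fold lower in SEA than in CTRL.

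**Figure D1:**
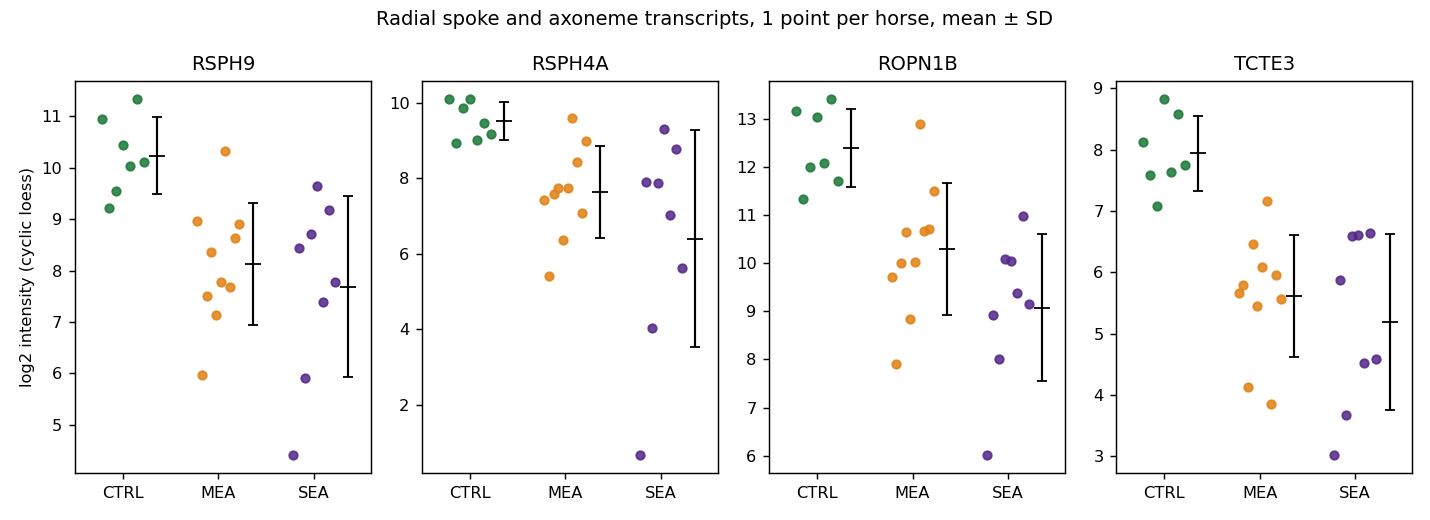
Log2 intensity of the 4 genes in each horse, by group, with the mean and SD of a group at its right. The CTRL means are highest for each gene, with 1 or 2 MEA horses reaching the CTRL range in each panel and 1 SEA horse for RSPH9 and RSPH4A only, and SEA replicate 1 is the lowest horse in all 4 panels, with 0.66 for RSPH4A.

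For each of the 4 genes the group means over all horses stood in the order CTRL, MEA, SEA, and the neighbours MEA and SEA lay closer together than the SD of the SEA horses. For RSPH9 the order of MEA and SEA rested on SEA replicate 1, without which the SEA mean was 8.15 against 8.13 in MEA. With another background correction (normexp) the log2 differences of SEA minus CTRL were smaller for all 4 genes, at -2.09 in place of -2.55 for RSPH9, -1.92 in place of -3.13 for RSPH4A, -2.92 in place of -3.32 for ROPN1B and -1.54 in place of -2.75 for TCTE3. Those of MEA minus CTRL were -1.77, -1.42, -1.9 and -1.37 in the same order, in place of -2.11, -1.89, -2.1 and -2.33. The same horses were at the ends. SEA replicate 1 had the lowest SEA value of all 4 genes, MEA replicate 7 had the highest MEA value of all 4, and MEA replicate 2 had the lowest MEA value of RSPH9, RSPH4A and ROPN1B. All 6 transcripts met the call rule of an adjusted p below 0.1 and a fold of at least 1.5 in SEA against CTRL, where 16.7% of the 4930 tested transcripts were called lower, and in MEA against CTRL, where 6.53% were. Since these contrasts chose the transcripts, nothing is read from those counts. Within the 4 slides, the mean of the 4 genes was lower in SEA than in CTRL horses by log2 differences of -6.4 on slide 1, where SEA replicate 1 was the only SEA horse, and of -2.91 to -2.25 on the others, and in MEA than in CTRL horses by differences from -2.82 to -1.33. In these bulk samples, fewer ciliated cells and less RNA per ciliated cell cannot be told apart.

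The contrast between the diseased groups asked whether the severe form differed from the mild one. The difference of SEA minus MEA was -0.39 ± 0.65 (SE) for ENSECAT00000000629 of RSPH9, with a 95% interval from -1.76 to 0.97 and a limma adjusted p of 0.758. It was -1.24 ± 0.92 for RSPH4A, with an interval from -3.15 to 0.68 and an adjusted p of 0.446. ROPN1B had -1.22 ± 0.63, with an interval from -2.53 to 0.1 and an adjusted p of 0.269. For ROPN1B 7 of 8 SEA horses were below the MEA mean, and for RSPH9, RSPH4A and TCTE3 4 of 8 were. TCTE3 had -0.42 ± 0.53, with an interval from -1.53 to 0.68 and an adjusted p of 0.67. None of the 6 transcripts was called, and none had an unadjusted limma p below 0.05. The exact rank-sum test also called 0 of the 6. Over all tested transcripts limma called 0.791% lower and 1.44% higher in SEA, and 1021 had an unadjusted p below 0.05. The intervals were wide, so a sizeable difference in RSPH4A or ROPN1B would have gone unseen. Within slides the mean of the 4 genes differed by -3.58 on slide 1, where SEA replicate 1 was the only SEA horse, by -0.09 on slide 2, by 0.01 on slide 3, which held 1 MEA horse, and by -1.58 on slide 4, which held 1 SEA horse. Without SEA replicate 1 the mean difference of the 4 genes moved from -0.83 to -0.32. That of RSPH4A was then -0.42, that of ROPN1B -0.78 and that of TCTE3 -0.11, and that of ENSECAT00000000629 turned to 0.08.

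**Figure D2:**
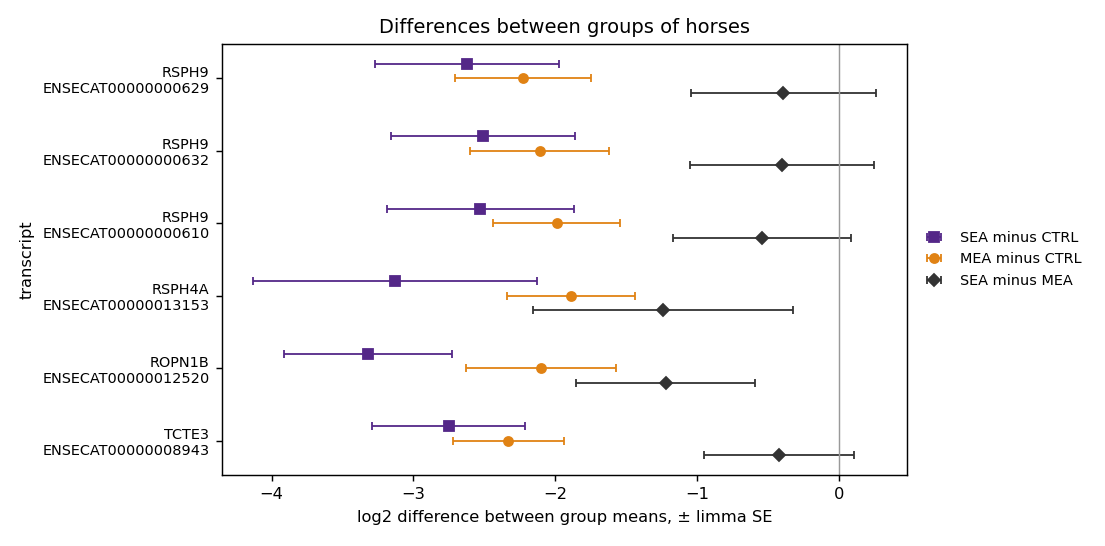
Log2 difference between group means for each of the 6 transcripts, with the limma SE as bars. The differences from CTRL lie between -3.32 and -1.89 and describe the choice of the transcripts, while those of SEA minus MEA lie between -1.24 and -0.39, the RSPH9 and TCTE3 ones closer to 0 than their SE.

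Covariation was examined after each group mean was subtracted, so that the differences between groups did not enter. The 4 genes varied more than most transcripts, with a pooled SD within groups of 1.3 to 1.33 for the RSPH9 transcripts, 1.82 for RSPH4A, 1.3 for ROPN1B and 1.08 for TCTE3, against a median of 0.56 over the tested transcripts. Most horses that were high for 1 gene were high for the others, with exceptions such as MEA replicate 8, which was among the higher MEA horses for RSPH4A and the lowest for TCTE3. RSPH9 and ROPN1B gave a Pearson r of 0.91 (permutation p = 1e-05, the smallest that the permutations can give, adjusted p = 0.000407) and a Spearman rho of 0.85 (permutation p = 1e-05, adjusted p = 0.000725). The r was 0.83 without the 2 horses farthest from the median of RSPH9. The spoke head pair RSPH9 and RSPH4A gave r = 0.88 (permutation p = 1e-05, adjusted p = 0.000407) and rho = 0.72 (permutation p = 0.00047, adjusted p = 0.0102), and r was 0.79 without the 2 farthest horses. RSPH4A and ROPN1B gave r = 0.86 (permutation p = 1e-05, adjusted p = 0.000279) and rho = 0.79 (permutation p = 1e-05, adjusted p = 0.000382), with r = 0.83 without the 2 farthest.

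Over the 25 horses, the r of TCTE3 was higher with RSPH9 than with the other genes, a difference that was not tested. By group it was highest with RSPH9 in MEA and SEA (0.48 and 0.95) but with ROPN1B in CTRL (0.79, against 0.76 with RSPH9). With RSPH9, TCTE3 gave r = 0.77 over the 25 horses (permutation p = 0.0001, adjusted p = 0.00232) and rho = 0.78 (permutation p = 4e-05, adjusted p = 0.00184), and r was 0.81 without the 2 farthest horses. With RSPH4A it gave r = 0.67 (permutation p = 0.00229, adjusted p = 0.0207) and rho = 0.58 (permutation p = 0.0102, adjusted p = 0.062). With ROPN1B it gave r = 0.64 (permutation p = 0.00171, adjusted p = 0.0179) and rho = 0.66 (permutation p = 0.00085, adjusted p = 0.0113). Without the 2 farthest horses the last 2 pairs fell to r = 0.50 (adjusted p = 0.217) and r = 0.42 (adjusted p = 0.337), so that the call of both rested on those horses, SEA replicate 1 among them. The adjusted values were taken over all tested transcripts set against the first gene of a pair, whose median r lay between -0.02 and 0.00. The 95th percentile of that r was 0.71 for RSPH9, 0.75 for RSPH4A and 0.74 for ROPN1B. The pairs of TCTE3 with RSPH4A and with ROPN1B lay below it, and 345 and 384 of 4929 transcripts had a higher r.

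Within single groups the 6 pairs ran from r = 0.88 to 0.98 in SEA, from 0.40 to 0.91 in CTRL and from 0.13 to 0.94 in MEA, where RSPH4A and TCTE3 had the lowest value. Whether r differed between groups was not tested. Within single slides the pairs ran from 0.67 to 0.94 on slide 1, 0.87 to 0.99 on slide 2, 0.54 to 0.87 on slide 3 and 0.39 to 0.93 on slide 4, each with 5 to 7 horses, so that each pair was positive on every slide. With both group and slide means subtracted, the pairs gave r from 0.68 to 0.90 over the 21 horses that shared a slide with another horse of their group. Without SEA replicate 1, a setting chosen after seeing the data, they ran from 0.52 to 0.87, and RSPH4A with TCTE3 was no longer called (r = 0.55, adjusted p = 0.119).

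**Figure D3:**
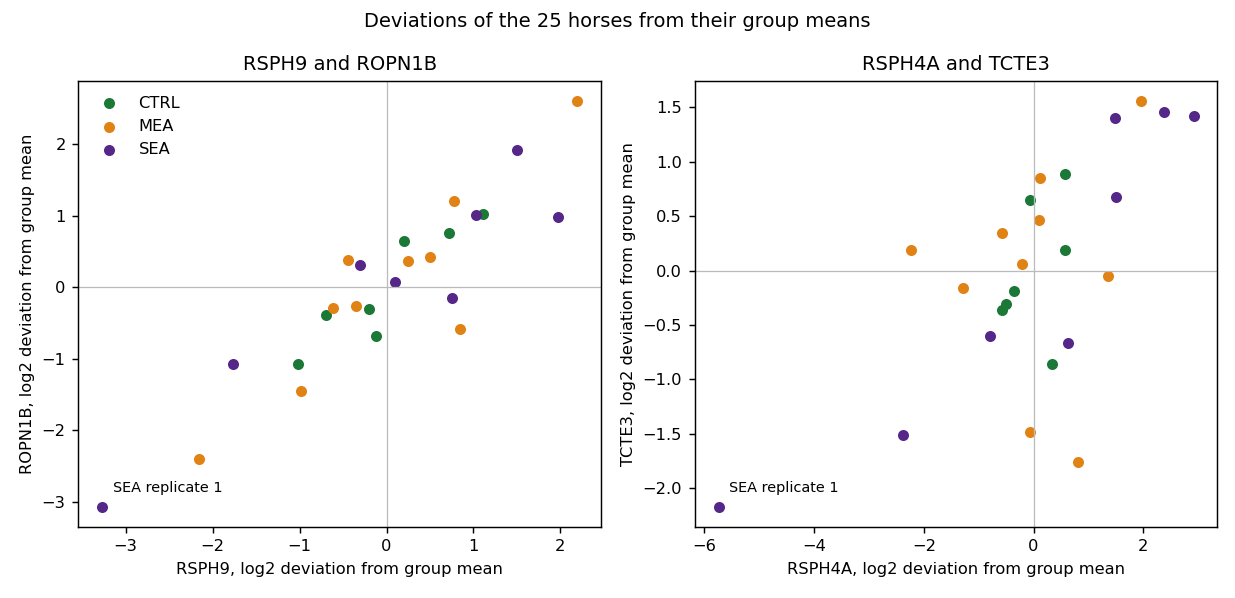
Log2 deviation of each of the 25 horses from its group mean, for RSPH9 against ROPN1B and for RSPH4A against TCTE3. The first pair follows a narrow band (r = 0.91), while the second (r = 0.67) scatters more widely and owes part of its slope to SEA replicate 1, at the lower left of both panels.

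The transcripts most like the 4 genes were ranked by the Pearson r of their deviations with the mean of the 4 genes over the 25 horses, as a measure of likeness with no p. The first was MLF1 (r = 0.98, rho = 0.93), followed by ARMC4 (r = 0.98, rho = 0.96) and SPAG6 (r = 0.97, rho = 0.94). C9orf9, METRN, RSPH3 and C20orf85 each had r = 0.97, and C7orf63, GALNTL4 and TTC18 each had r = 0.96. RSPH3 had a rho of 0.97, as did TTC18. Without SEA replicate 1 the r of the 10 transcripts ran from 0.94 to 0.96. Of the other 4924 tested transcripts, 308 had an r above 0.7, and the median over all was -0.01. Gene symbols came from lists of transcripts that the study had called changed in these horses, which named 1684 of the 4930 tested transcripts. Only those could enter the gene and marker lists below. The counts, medians and adjusted p values of these lists against CTRL are therefore not independent evidence of a change or of its direction. The shares and medians over all tested transcripts describe the array and are not a level expected for such lists.

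The radial spoke list held RSPH3, RSPH6A, RSPH10B, DNAJB13, NME5 and C3orf15. All 6 were called lower in SEA than in CTRL, as were 16.7% of all tested transcripts, with a median of -2.27 against -0.01 over all. In MEA 3 of 6 were called lower than in CTRL, against 6.53% of all, with a median of -1.47 against 0.03. DNAJB13, a chaperone of the spoke, differed from CTRL by -2.56 in SEA (limma adjusted p = 0.0215) and -2.2 in MEA (adjusted p = 0.0296) on the log2 scale. RSPH3, a protein of the spoke stalk, differed by -2.41 in SEA (adjusted p = 0.0264) and -1.79 in MEA (adjusted p = 0.047), and NME5 by -2.13 and -1.67 (adjusted p = 0.0179 and 0.0452). All 3 were called in both contrasts. In MEA a single member of the list was called without CTRL replicate 1, 4 or 6, and none with the percentage of counted epithelial cells as a covariate. RSPH10B differed by -2.73 in SEA and by -0.96 in MEA (adjusted p = 0.0211 and 0.358), and C3orf15 by -1.98 and -1.28 (adjusted p = 0.0522 and 0.109). RSPH6A, a spoke head relative of RSPH4A best known from testis, differed by -1.36 in SEA and by -0.26 in MEA (adjusted p = 0.0175 and 0.715), and it had the lowest likeness to the 4 genes in this list (r = 0.68, against a list median of 0.93). None of the 6 was called in SEA against MEA, where 0.791% of all tested transcripts were called lower and 1.44% higher. The median was -0.66 against -0.04. Without MEA replicate 3, 1 of the 6 was called lower, while 559 of all tested transcripts were called in either direction.

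The axoneme list of dynein arm, tektin, central pair and assembly genes had 17 tested transcripts of 16 genes. In SEA against CTRL 16 of 17 were called lower, against 16.7% of all tested transcripts, with a median of -2.11 against -0.01 over all. In MEA against CTRL 10 of 17 were, against 6.53% of all, with a median of -1.55 against 0.03, and none was called higher in either. That MEA count was 3 without CTRL replicate 1 or 6, and 0 with the percentage of counted epithelial cells as a covariate. In SEA against MEA none was called lower, against 0.791% of all, with a median of -0.72 against -0.04, and without MEA replicate 3, 1 of 17 was. The named extremes in that contrast were C10orf93 at -1.81 and C7orf63 at -1.21, and WDR92 at 0.79 and SPAG1 at 0.11 (limma adjusted p = 0.152, 0.37, 0.31 and 0.866). WDR92 and SPAG1, which serve the assembly of dyneins in the cytoplasm, were also the least like the 4 genes of this list over the 25 horses (r = 0.46 and 0.64, against a list median of 0.93). Without SEA replicate 1 the r of SPAG1 was 0.80, above those of C10orf93 and GAS8 at 0.76 and 0.77, and that of WDR92 was 0.48.

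The ciliogenesis factor list held FOXJ1, TP73 and RFX2, transcription factors of cells that build motile cilia. FOXJ1, the factor that switches on the motile cilium program, differed from CTRL by -1.55 in SEA (limma adjusted p = 0.0133) and by -1.23 in MEA (adjusted p = 0.0696). TP73 differed by -1.86 in SEA and by -1.4 in MEA (adjusted p = 0.0308 and 0.0806), so that 2 of 3 were called lower in both contrasts, against 16.7% and 6.53% of all tested transcripts. RFX2 differed by -0.68 and -0.53 (adjusted p = 0.145 and 0.484). The likeness to the 4 genes was 0.91 for TP73, 0.83 for FOXJ1 and 0.51 for RFX2. None of the 3 was called lower in SEA against MEA, against 0.791% of all, with a median of -0.33. The MEA calls of this list were lost with slide as a block, where 0 of 3 were called, and those of the axoneme list dropped to 3.

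The epithelial percentage came from a separate count of each horse's lavage smear that recorded epithelial cells, made after the count of inflammatory cells. Among CTRL horses its median was 1.3%, among MEA horses 2.5% and among SEA horses 1.5%, and no epithelial cell was counted in 2 CTRL horses and 1 SEA horse. The group with the highest ciliary transcripts thus had the lowest median percentage, although the CTRL and SEA medians lay close together. The percentages ran from 0% to 2% in CTRL and from 0% to 3.7% in SEA, and their difference was not tested. CTRL replicates 1 and 2, without a counted epithelial cell, still had RSPH9, RSPH4A, ROPN1B and TCTE3 well above background. CTRL replicate 1 had the highest RSPH4A of the 25 horses, at 10.11 against 10.1 in CTRL replicate 4, which had 2% epithelial cells. CTRL replicate 2 had the lowest CTRL value of RSPH9, RSPH4A and ROPN1B. SEA replicate 3, the SEA horse without a counted epithelial cell, was below every other SEA horse but replicate 1 for all 4 genes.

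Among horses of a group, SEA replicate 1 included, no relation of the 4 genes to the percentage was found within the precision of these data. With group means subtracted, RSPH9 gave r = 0.16 (permutation p = 0.51, adjusted p = 0.999) and rho = 0.15 (permutation p = 0.499, adjusted p = 0.999). RSPH4A gave r = 0.22 (permutation p = 0.405, adjusted p = 0.999) and rho = 0.33 (permutation p = 0.147, adjusted p = 0.999). ROPN1B gave r = 0.01 (permutation p = 0.953, adjusted p = 0.999) and rho = 0.01 (permutation p = 0.981, adjusted p = 0.999). TCTE3 gave r = 0.08 (permutation p = 0.728, adjusted p = 0.999) and rho = 0.12 (permutation p = 0.592, adjusted p = 0.999). The 3 horses without a counted epithelial cell tied as farthest from the median percentage, and with the 2 CTRL horses of them left out r was 0.16 for RSPH9, 0.23 for RSPH4A, 0.00 for ROPN1B and 0.08 for TCTE3. The relation was computed for all 4930 tested transcripts, and 0 had an adjusted p below 0.1, while 47 had an unadjusted permutation p below 0.05.

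Within single groups no gene reached an unadjusted permutation p of 0.05 either. In SEA, exact tests gave r = 0.36 for RSPH9 (p = 0.384), 0.30 for RSPH4A (p = 0.478), 0.03 for ROPN1B (p = 0.952) and 0.45 for TCTE3 (p = 0.259). These tests held SEA replicate 1, which had the lowest SEA value of all 4 genes at 2% epithelial cells, above the SEA median of 1.5%. How far the SEA values of r rest on that horse was not tested. In MEA the permutation tests gave r between -0.38 for TCTE3 (p = 0.281) and 0.09 for RSPH4A (p = 0.795), and in CTRL the exact tests gave r between -0.14 for RSPH9 (p = 0.757) and 0.27 for RSPH4A (p = 0.532). Pooled over the 25 horses without regard to group, r was -0.12 for RSPH9, 0.02 for RSPH4A, -0.17 for ROPN1B and -0.21 for TCTE3 (permutation p = 0.583, 0.927, 0.409 and 0.308).

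The limma slope on the percentage, with group in the fit, gave the size that the data allowed. It was 0.37 ± 0.34 (SE) log2 units per percentage point for RSPH4A, with a 95% interval from -0.32 to 1.06 (adjusted p = 0.998). ROPN1B had 0.02 ± 0.25, with an interval from -0.49 to 0.53, and TCTE3 had 0.08 ± 0.2, with an interval from -0.34 to 0.51 (adjusted p = 0.998 for both). The RSPH9 transcripts had 0.17 to 0.22. The slope was called for 0 of the 4930 transcripts (0%), with 37 at an unadjusted limma p below 0.05. The 10 transcripts of the epithelial marker list, such as EPCAM and KRT18, had slopes from 0.03 to 0.30 and none was called. A smear count of rare cells is coarse, and its error was not tested. With the percentage as a covariate the mean MEA minus CTRL difference of the 4 genes was -2.04 in place of -2.11, and the SEA minus CTRL difference was -3.12 in place of -2.94. In MEA against CTRL none of all tested transcripts, the 6 among them, was called in that fit. Since the contrasts with CTRL chose the 6 transcripts, nothing is read from their calls.

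**Figure D4:**
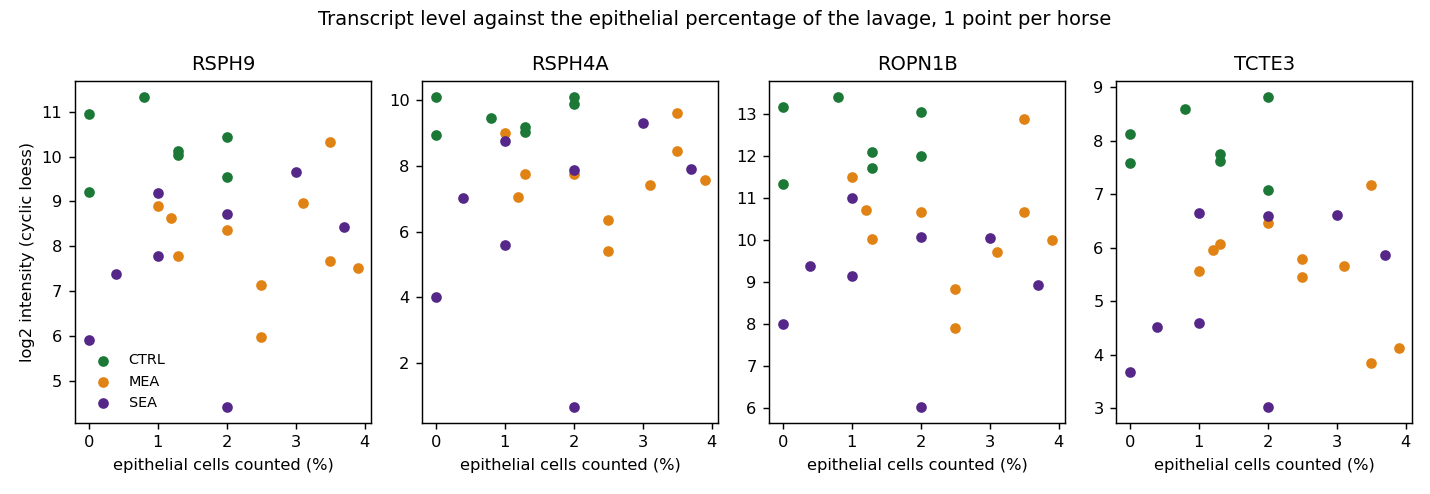
Log2 intensity of the 4 genes against the percentage of epithelial cells counted in the lavage, 1 point per horse. Most CTRL horses lie in the upper left of each panel, at 2% or less, MEA replicate 7 lies at a similar height at 3.5%, and no panel shows a slope within a group that passed its test.

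General epithelial markers were described beside the ciliary genes. Of 10 epithelial marker transcripts, 10 were called lower in SEA and 5 in MEA than in CTRL, against 16.7% and 6.53% of all tested transcripts, with medians of -2.06 and -1.07. Their likeness to the 4 genes had a median r of 0.80, with 0.92 for 1 of the 2 KRT18 transcripts, 0.85 for EPCAM and 0.33 for GRHL1. The summed epithelial marker intensity had a median of 19400 in CTRL, 7900 in MEA and 5200 in SEA, and the brightest probe, that of CLDN7, weighed most in the sum. In SEA against MEA the epithelial list had a median of -1.04, with -1.53 for a DSP transcript and -1.28 for another of DSP. None of the list was called, where 0.791% of all tested transcripts were called lower and 1.44% higher. Of the 4 secretory cell markers, 3 were called lower in SEA and 1 in MEA than in CTRL, with the CXCL17 probe the brightest and summed medians of 20200 in CTRL, 7810 in MEA and 5620 in SEA. The secretory markers were less like the 4 genes, with a median r of 0.59 and r = 0.04 for MUC5AC, the gel-forming mucin of goblet cells. Without SEA replicate 1 the median r was 0.69 for the epithelial list and 0.45 for the secretory list. The r of RAB25 then fell from 0.64 to 0.39, and that of MUC5AC turned to -0.12.

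Leukocyte markers were detected in these lavage cells, but their sums did not follow the smear counts in every horse, as given above for SEA replicate 1 and MEA replicate 3. CD68, whose probe was the brightest of the macrophage markers, was well above background on all 25 arrays, as was MARCO, whereas STAB1, and PRKCQ and IL2RB among the lymphocyte markers, did not pass the filter on dim probes. Of 6 tested macrophage transcripts, 2 were called higher in SEA and 2 in MEA than in CTRL, where 16.0% and 3.25% of all tested transcripts were, and the summed medians were 47800 in CTRL, 61400 in MEA and 50400 in SEA. Their r with the 4 genes had a median of -0.50, from -0.67 for a SIGLEC1 transcript to 0.00 for VSIG4 and 0.11 for MARCO. Of 7 neutrophil transcripts, 6 were called higher in SEA and 0 in MEA than in CTRL. Their summed medians were 3400 in CTRL, 4900 in MEA and 47400 in SEA, with the TREM1 probes the brightest, and their r with the 4 genes had a median of 0.18, which turned to -0.18 without SEA replicate 1. In SEA against MEA, TREM1 had the largest difference of that list at 2.89 (limma adjusted p = 0.121). Of 8 tested lymphocyte transcripts, 4 were called higher and 1 lower in SEA than in CTRL and 0 in MEA. The summed medians were 8370 in CTRL, 4820 in MEA and 4630 in SEA. The GZMB probes of ENSECAT00000018054 and ENSECAT00000021962 were the brightest, with CTRL means of 11.93 and 11.78 on the log2 scale, and weighed most in the sum. They differed from CTRL by -1.35 and -0.7 in SEA, and the former was the transcript called lower. The median r of the 8 transcripts with the 4 genes was 0.06 over the 25 horses and -0.39 without SEA replicate 1.

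**Figure D5:**
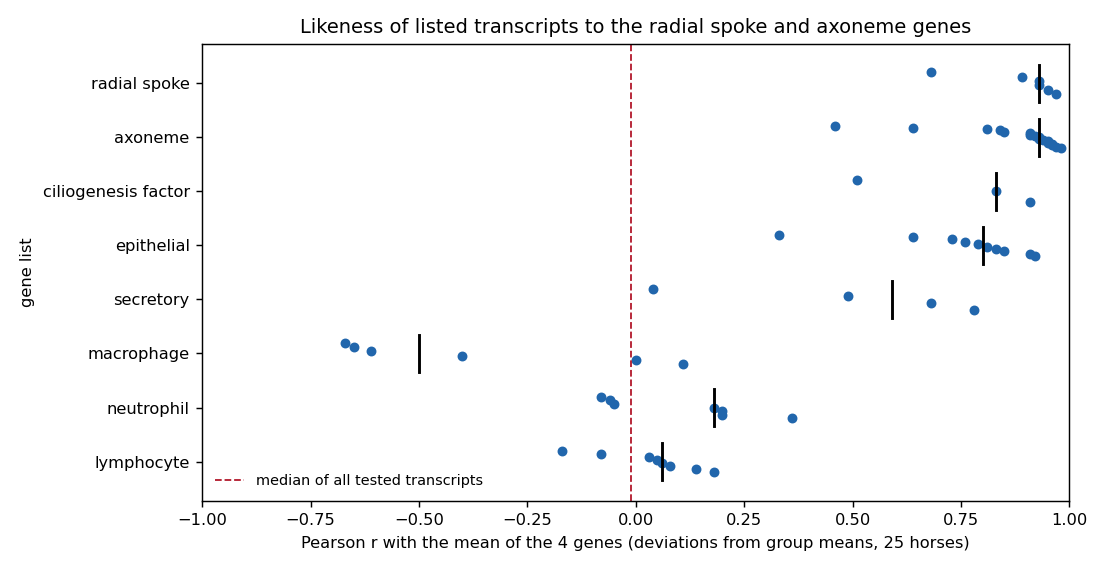
Pearson r of each listed transcript with the mean of the 4 genes over 25 horses, after subtraction of group means; 1 point per transcript, with list medians as black bars. The radial spoke and axoneme lists have a median of 0.93, the epithelial list 0.80 and the macrophage list -0.50, beside -0.01 for all tested transcripts.

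For counted neutrophils the median percentage was 0.2% among CTRL horses, 6.8% among MEA horses and 84.8% among SEA horses. Its r with the 4 genes within groups ran from -0.15 for RSPH4A (permutation p = 0.656, adjusted p = 0.843; rho = -0.24, permutation p = 0.337) to 0.03 for TCTE3 (permutation p = 0.926, adjusted p = 0.97; rho = -0.01, permutation p = 0.975), and without the 2 farthest horses these were 0.05 and 0.32. The percentage of bright spots on an array, those well above background, had no relation to any of the 4 genes with an adjusted p below 0.1. Within groups it gave r = 0.41 with RSPH9 (permutation p = 0.0433, adjusted p = 0.287; rho = 0.34, permutation p = 0.101) and r = 0.43 without the 2 farthest horses, and r = 0.20 with TCTE3 (permutation p = 0.341, adjusted p = 0.673; rho = 0.17, permutation p = 0.441). The part of cell mixture in the group differences of the ciliary genes was not tested.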

How the data were processed

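The authors deposited, per the file headers, the background-subtracted intensity of each spot from Feature Extraction 9.5.1, and their own table of normalized values. The submitters' notes name R 2.11.1. The scanner intensities were used. Cyclic loess (span 0.7, 3 iterations) brought the log2 values of all arrays to a common scale, spots were averaged without outlier-flagged ones, and transcripts under 4.5 in at least 19 arrays were left out, which kept 4930 of 7238. The methods do not state the scale of that limit, log2 was assumed, and the number kept differs from theirs. Each pair of groups was fitted in R 4.3.3 with limma 3.58.1 (data.table package, version 1.17.8), with p values adjusted by Benjamini-Hochberg over all genes tested. Transcripts were called at an adjusted p below 0.1 and a fold of at least 1.5. Correlations used 2-sided permutation within groups (100000, or exact for single groups under 10 horses) in Python 3.11.15 with NumPy 2.4.6, SciPy 1.17.1 and Matplotlib 3.10.9, for 4 genes with the epithelial percentage in 5 sets of horses and 6 pairs of genes. Relations to the neutrophil percentage and to the percentage of bright spots were added after the values were seen. The percentages, an input from the study's cytology, are not array data. The steps were tested on simulated data. The p values measure spread between horses. No arrays held identical values. The transcripts and lists were chosen with earlier results of these data known. Named genes were the 6 transcripts, the 10 most like their mean, all of the radial spoke and ciliogenesis factor lists, and up to 2 at either end of SEA minus MEA in the other lists; further names were picked after their values were seen. Promoter motifs and genome positions were not analysed here. Of the 4 symbols, 2 were found among the RefSeq gene names, and the others kept the names of the gene tables. Alternatives to scaling, background correction, filter, flags, variance model, blocks and covariates were run for the group differences, counts and slopes, with each horse left out in turn. The correlations had fewer alternatives. Of single horses only SEA replicate 1 was left out, for the pairs of genes and for the likeness to the 4 genes.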

Additional observations from a re-analysis of the deposited data

How the results depend on the processing

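The mean differences of the 4 genes kept their direction in all alternatives, from -3.24 to -2.12 for SEA minus CTRL, -2.27 to -1.62 for MEA minus CTRL and -1.1 to -0.5 for SEA minus MEA, and with a horse left out from -3.2 to -2.43, -2.34 to -1.92 and -1.09 to -0.32. The median of all transcripts in SEA minus MEA was -0.13 with 75th percentile scaling and -0.04 with cyclic loess. The counts of calls depended more on the setting, and the cause was not tested. The counts are totals under each setting, and their overlap was not computed. The intensity filter was applied again after each normalization, so that 75th percentile scaling tested 5093 transcripts, quantile normalization 4977 and normexp background correction all 7238, in place of 4930. In SEA against CTRL the total was 1612, and 754 with normexp. With normexp all 4 genes differed less from CTRL, with -1.92 for RSPH4A and -1.54 for TCTE3 in SEA. In MEA against CTRL the total was 482, with 119 under normexp, 183 with slide as a block and 0 with the epithelial percentage as a covariate. With that covariate 0 of the 6 members, 0 of the radial spoke list, 0 of the axoneme list and 0 of the ciliogenesis list were called. The single fit of 25 arrays called 5 of the 6 members in MEA against CTRL. Since this contrast chose the members, nothing is read from these counts of members. For the axoneme list in MEA against CTRL (10), normexp gave 4 and slide as a block and a single fit of 25 arrays 3 each. For the ciliogenesis list (2), 75th percentile scaling, normexp, no intensity filter and the single fit gave 1 each, and slide as a block 0. In SEA against MEA the total was 110. It was 0 with 75th percentile scaling and with slide as a block, 39 with quantile normalization, 2 with normexp, 37 with the epithelial covariate and 25 with the exact rank-sum test, while the single fit gave 279 and the percentage of bright spots as a covariate 219.

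With a horse left out, the calls ran from 1238 to 1706 in SEA against CTRL, 156 to 750 in MEA against CTRL (lowest without CTRL replicate 1, highest without MEA replicate 7, and changed by more than 1.5 times also without CTRL replicates 4 and 6 and MEA replicates 2, 5, 9 and 10) and 2 to 559 in SEA against MEA (lowest without SEA replicate 2, highest without MEA replicate 3, and changed by more than 1.5 times without any 1 of the 18 horses). In MEA against CTRL the lists ran from 1 to 4 for radial spoke, 3 to 16 for axoneme and 0 to 2 for ciliogenesis, and in SEA against MEA from 0 to 1 for radial spoke and for axoneme. ENSECAT00000000629 and ENSECAT00000000632 of RSPH9 turned to 0.08 and 0.06 in SEA minus MEA without SEA replicate 1, and both reached -0.68 without SEA replicate 5.

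The horses of a replicate number were different animals, and the correlations of same-numbered horses ran from -0.44 to 0.41, so the numbers did not pair them. With the replicate number as a block, the mean differences were -2.89, -2.21 and -0.71, the calls in MEA against CTRL 138 and in SEA against MEA 0, the axoneme list 10 in SEA and 6 in MEA against CTRL, and the ciliogenesis list 0 in MEA.

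The mean slope on the epithelial percentage was 0.17 and called in no setting. It was -0.17 without a group term, where the RSPH9 transcripts had -0.2, -0.16 and -0.12, ROPN1B -0.26 and TCTE3 -0.28. The ROPN1B slope was -0.03 with 75th percentile scaling, -0.04 with slide as a block and -0.02 with the percentage of bright spots as a covariate. With a horse left out the mean slope ran from 0.05 to 0.24, that of ROPN1B from -0.11 to 0.1 and that of TCTE3 from -0.03 to 0.19. The correlations with the percentage turned to -0.12 for RSPH9, -0.17 for ROPN1B and -0.21 for TCTE3 when pooled without centring, and to -0.02 for ROPN1B with 75th percentile scaling. Quantile normalization lowered the r of RSPH4A with TCTE3 to 0.50 (adjusted p = 0.188).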
